A study of Homo sapiens with 18 samples.

Results

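Gene expression on the 3 control arrays labelled SNU449 was compared with that on the 3 control arrays labelled PLC (PLC/PRF/5), 6 of the 18 arrays of a series on ATAD2 in hepatocellular carcinoma. Arrays were put in their groups by sample titles alone, while the comparison and the gene lists were chosen with earlier results of these data known. Both names stand for established lines of human liver cancer, and the third line of the series is Hep3B. All cells were grown in RPMI medium and transfected with siRNA: the control groups received a control siRNA, so neither group is untouched cells, and a further 3 arrays of each line received an siRNA against ATAD2. The labels call the latter knockouts, whereas the design of the series describes siRNA. The labels call the 3 arrays of a group biological replicates and do not say whether they came from separate cultures. The p-values below thus measure the spread between arrays within groups, pooled over all 6 groups of the series. Each group is 1 cell line, and a difference between the groups is a difference between 2 cell populations, with no replication over lines.

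A hepatocyte makes most of the proteins of blood plasma, clears drugs and ammonia, and keeps blood glucose level by storing and releasing sugar. Liver cancer lines keep this programme to very different degrees: some still secrete albumin, fibrinogen and apolipoproteins, while others have turned to a mesenchymal state, with loss of epithelial adhesion and gain of motility genes. Many also re-express genes of the fetal liver, such as AFP and GPC3, or genes of the germ line, such as the MAGE family.

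The labels and the values have to be read with care. SNU449 is usually described as a poorly differentiated, mesenchymal-like line and Hep3B as a line that secretes plasma proteins and lacks RB1. In these data the control arrays labelled SNU449 had a mean log2 signal of 13.76 for ALB, 12.81 for AHSG, 12.47 for the epithelial marker EPCAM and 4.44 for RB1, whereas the control arrays labelled Hep3B had 3.03, 5.42, 2.73 and 9.47. For the mesenchymal genes VIM, ZEB1 and AXL the means were 11.56, 4.08 and 3.46 under the SNU449 label, and 13.30, 9.0 and 10.81 under the Hep3B label. TPM2, another mesenchymal gene, did not follow them, with 4.66 under the SNU449 label and 4.38 under the Hep3B label. These genes are examples, and mesenchymal genes as a group were not counted between these labels. Apart from TPM2, the values of these genes go against the usual descriptions of both lines, and the arrays are called "labelled SNU449" throughout. No identity test of the lines was made. The PLC arrays lay between these for ALB (10.61), EPCAM (6.09) and ZEB1 (8.60), and below both for VIM (10.50).

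Values are log2 signals of an Affymetrix array after quantile normalization over all 18 arrays, which gives every array the same distribution. A difference is always the arrays labelled SNU449 minus the PLC arrays, so a positive difference means higher under the SNU449 label. A gene was called at a Benjamini-Hochberg adjusted p under 0.05 in limma together with an absolute log2 difference of at least 1. The deposited columns of the 2 labels were on different scales, with sorted columns up to 1.49 log2 units apart, and line and scale cannot be told apart without an assumption. Without the normalization the median difference of all genes moved from 0.01 to 0.76 log2 units, and after centring each array on its median it moved to -0.69, so every direction below is relative to the median gene. For markers of other cell types the calls depended on the scale: the 12 endothelial and the 12 stellate and fibroblast markers gave 0 calls at this size (8 and 7 of them passed the adjusted p alone in limma), although the values as deposited gave 10 and 7 higher and median centring 1 and 3 lower. The endothelial list's summed signal was 8.85 to 8.90 under the SNU449 label and 8.56 to 8.62 on PLC. Of 12 leukocyte markers 3 were called higher (9 as deposited, 1 after median centring), FCER1G by 1.31, CD14 by 1.10 and LYZ by 1.07, while the pan-leukocyte gene PTPRC differed by 0.50 and was not called. On the ATAD2 siRNA arrays 1 of the 12 was called higher and 0 lower, and 1 of the 3 calls was kept. LYZ was at -0.62 after median centring. FCER1G lost the call in the mean of its probe sets (0.85) and CD14 without PLC control replicate 3 (0.99). With the leukocyte list's summed signal at 12.2 to 12.3 against 11.2 to 11.4, its part in the results below was not tested.

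In total 3792 of 19775 genes were called, which is 19.2%: 1706 of them higher under the SNU449 label (8.63% of all genes) and 2086 of them lower (10.5%). Every list count below is to be read against these shares, and one near 19.2% called says nothing particular about its members. Within a group the genes' standard deviation had a median of 0.0726 log2 units under the SNU449 label and 0.0718 on PLC, so the minimum size lies far outside the spread between arrays. By adjusted p alone 14250 genes (72.1%) passed, and in 15123 (76.5%) the 3 values of each group did not overlap, so a count of passing genes means little here without a minimum size. A difference of at least 4 log2 units was found for 110 genes in the higher and 128 in the lower direction, and one of at least 6 for 19 and 30. Control arrays of one label correlated with Pearson's r of 0.998 (SNU449 label) and of 0.996 to 0.997 (PLC) across genes, and arrays of different labels with 0.895 to 0.897. ATAD2 itself, the gene the siRNA aimed at, had 9.32, 9.18 and 9.14 under the SNU449 label and 9.78, 9.67 and 9.69 on PLC. Its difference of -0.50 (adjusted p 0.00935, limma) was below the minimum size, and another ATAD2 probe set had the opposite call, so no order of the lines is given for ATAD2. On the ATAD2 siRNA arrays the gene read 6.62, 6.90 and 6.96 under the SNU449 label and 7.05, 7.17 and 7.06 on PLC, below every control array of the same label.

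**Figure D1:**
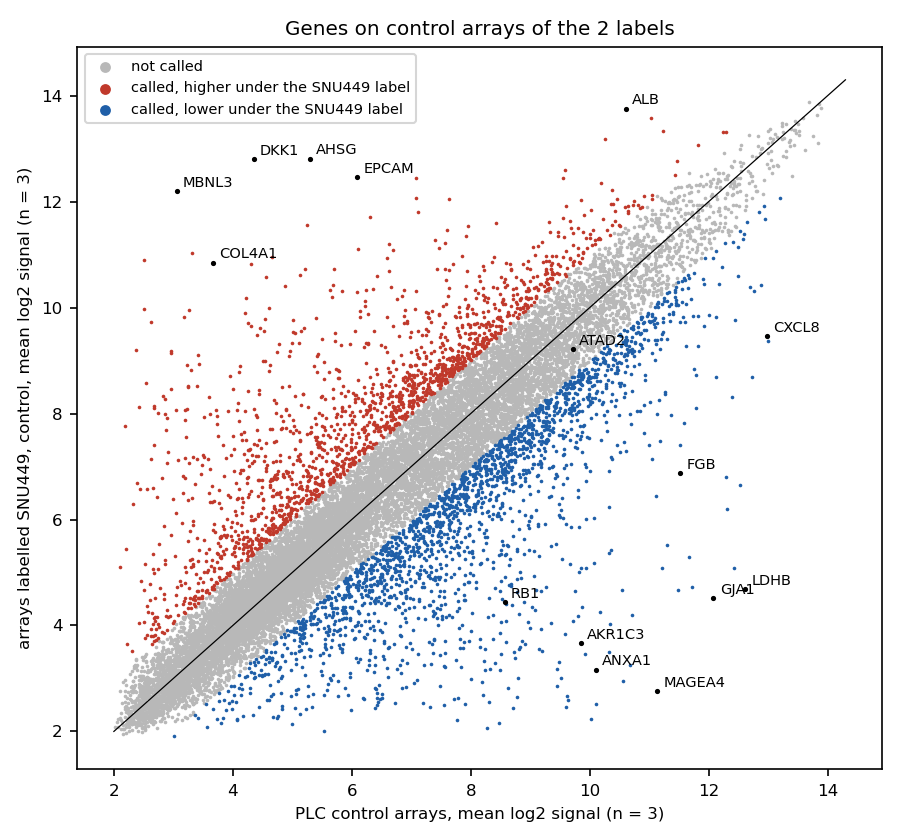
Mean log2 signal of each of 19775 genes on the 3 control arrays labelled SNU449 (vertical axis) against the 3 PLC control arrays (horizontal axis), with called genes in red (higher, 1706) and blue (lower, 2086) and the line of equal signal in black. MBNL3, DKK1 and AHSG lie farthest above the line and MAGEA4 and LDHB farthest below it among the genes labelled in the plot.

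The genes with the largest differences were dim in one group and bright in the other. MBNL3, a regulator of RNA splicing, read 12.26, 12.18 and 12.18 on the 3 arrays labelled SNU449 and 3.38, 3.15 and 2.64 on the 3 PLC arrays. Its difference, 9.15 ± 0.17 (SE), was the largest among the genes ranked, which leave out sex-specific genes and unnamed loci. The PLC values lay below the tenth percentile of all gene signals, 3.49. DKK1, a secreted inhibitor of Wnt signalling, read 12.83, 12.79 and 12.81 against 4.28, 4.37 and 4.41, a difference of 8.46. MAL2, a protein of transcytosis in polarised epithelium, differed by 8.39, the synaptic adhesion gene NRXN3 by 7.72, and the homeobox gene IRX3 by 7.46. Other genes of the top 15 higher were SESN3 (7.11), a stress-induced regulator of growth signalling, PWWP3B (6.83), GALNT3 (6.70), which starts O-linked sugar chains, S100A6 (6.52) and ABAT (6.29), which breaks down the transmitter GABA. AHSG, COL4A1, COL4A2, EPCAM and UGT2B4 complete these 15 and are described with their groups. Since a dim probe set reads background, these differences understate the true ratio where one group lies at the floor.

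In the opposite direction MAGEA4, a germ-line antigen, read 2.83, 2.72 and 2.72 under the SNU449 label and 11.26, 11.01 and 11.13 on PLC, a difference of -8.38 ± 0.069 (SE). LDHB, a subunit of lactate dehydrogenase, read 4.54, 4.77 and 4.73 against 12.63, 12.62 and 12.61. GJA1, the gap junction protein connexin 43, read 4.35, 4.58 and 4.60 against 12.09, 12.12 and 12.03, and ANXA1, a calcium-dependent membrane-binding protein, read 3.13, 3.26 and 3.12 against 10.04, 10.15 and 10.11. No array of one label came near the range of the other for any of these. The other genes of the 15 largest negative differences were CSGALNACT1 (-7.61), an enzyme of chondroitin sulfate synthesis, SLC25A24 (-7.60), a mitochondrial carrier, the kinase RPS6KA3 (-7.43), TM4SF1 (-7.34), PDK4 (-7.15), a kinase that shuts pyruvate dehydrogenase, SPESP1 (-7.05), the stress hormone gene CRH (-7.0), NLGN4X (-6.95), the tropomyosin gene TPM2 (-6.82), CALB1 (-6.82) and KRT20 (-6.59). Adjusted p-values of all 30 genes lay under the threshold in limma by many orders of magnitude, for example 1.57e-17 for MBNL3 and 2.06e-21 for MAGEA4, and their size tells more than their p.

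The plasma protein genes that were called were mostly higher under the SNU449 label. Of 75 different genes in 5 lists (carriers, apolipoproteins, coagulation, complement, acute phase), 37 were called higher, 4 lower and 34 neither way, against backgrounds of 8.63% and 10.5% over all genes. Among the carriers 8 of 12 were higher and 0 lower, with a median difference of 2.01. AHSG, the fetuin that binds calcium phosphate in blood, read 12.82, 12.79 and 12.82 under the SNU449 label and 5.4, 5.17 and 5.33 on PLC, a difference of 7.51 ± 0.07 (SE). RBP4, the carrier of retinol, read 12.38, 12.47 and 12.49 against 7.05, 7.05 and 7.13. ALB differed by 3.15, the thyroid hormone carriers TTR by 2.27 and SERPINA7 by 2.02, and the iron carrier TF by 2.09. Not called were AMBP (-0.17), AFM (0.63) and SERPINA6 (0.76). Among 14 apolipoprotein and assembly genes 5 were higher and 0 lower: APOA1 by 4.42, APOC3 by 2.96, APOH by 2.93, APOA2 by 2.54 and MTTP, which loads lipid onto lipoproteins, by 1.39. After median centring the same list gave 3 higher and 3 lower.

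Complement genes, whose proteins mark microbes for destruction, gave 10 higher and 0 lower of 17, with a median difference of 1.33. Both chains of the C4b-binding protein, a soluble inhibitor of the cascade, were far apart: C4BPA read 10.74, 10.73 and 10.73 under the SNU449 label and 5.72, 5.73 and 5.67 on PLC, and C4BPB differed by 5.24. A further inhibitor, CFI, differed by 5.16, the lectin pathway protease MASP1 by 4.42, the classical pathway protease C1R by 2.74 and C2 by 1.85. C5 (-0.75), C8G (-0.79) and C9 (-0.11) were not called. Among 12 acute phase proteins, made by the liver in inflammation, 6 were higher and 0 lower. ORM1 read 11.71, 11.86 and 11.86 against 7.12, 7.21 and 7.0, HAMP, the iron-regulating hormone hepcidin, differed by 2.12, ITIH2 by 1.58, HP by 1.23 and SERPINA3 by 1.19. SERPINA1 (1.06) had a further probe set with the opposite call, so its order is uncertain.

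Fibrinogen went the other way. The 3 fibrinogen chains, whose genes lie side by side and whose products form the clot, were all lower under the SNU449 label. FGB read 6.75, 6.96 and 6.92 under that label and 11.56, 11.52 and 11.49 on PLC, a difference of -4.65 ± 0.063 (SE, adjusted p 4.12e-19 in limma). FGA read 8.61, 8.77 and 8.71 against 12.18, 12.11 and 12.08, and FGG read 8.64, 8.73 and 8.71 against 12.73, 12.72 and 12.73. No array overlapped for any chain. Among the other clotting genes F12 was lower too, 8 were higher and the rest were not called. Of the higher ones SERPIND1, the thrombin inhibitor heparin cofactor II, read 9.66, 9.64 and 9.64 against 4.19, 4.43 and 4.29, F5 differed by 4.47 and KNG1, the kininogen, by 4.41. Over the 20 coagulation genes 8 were higher and 4 lower, a balance that turned to 4 and 6 after median centring. F13B (-0.98), KLKB1 (0.74) and SERPINC1 (0.35) were not called.

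**Figure D2:**
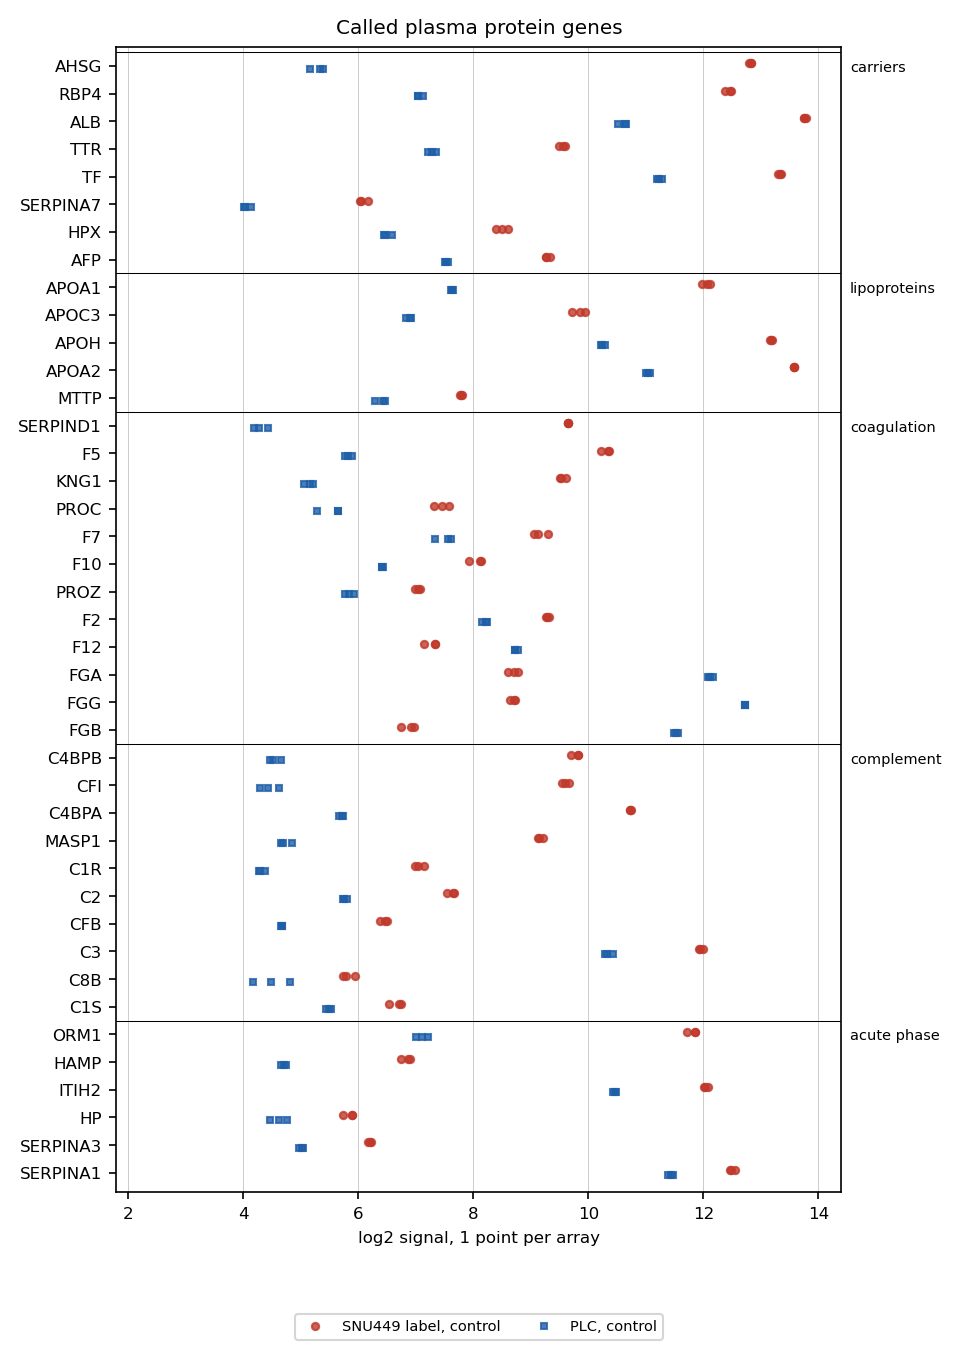
Log2 signal on each control array (1 point per array, 3 per label) of the 41 called plasma protein genes, grouped by list. Arrays labelled SNU449 (red circles) lie to the right of PLC arrays (blue squares) for 37 genes and to the left for F12, FGA, FGG and FGB.

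The promoters of ALB, FGA and FGB are shown because these genes moved in opposite directions while their windows carry the same short motif. The motif GTTAAT, the half-site of the hepatocyte factor HNF1, is in capitals, read as ATTAAC where it lies on the other strand. Each window is the 250 bases before the gene's start on the gene's own strand, from RefSeq on GRCh38.p14: ALB at chr4:73404037-73404286 on the plus strand, FGA at chr4:154590743-154590992 on the minus strand and FGB at chr4:154562730-154562979 on the plus strand.
ALB: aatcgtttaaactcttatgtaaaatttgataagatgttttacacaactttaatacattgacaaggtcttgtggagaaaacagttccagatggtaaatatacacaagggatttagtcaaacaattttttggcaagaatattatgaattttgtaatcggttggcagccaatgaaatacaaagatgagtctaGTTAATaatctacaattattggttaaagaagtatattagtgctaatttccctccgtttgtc
FGA: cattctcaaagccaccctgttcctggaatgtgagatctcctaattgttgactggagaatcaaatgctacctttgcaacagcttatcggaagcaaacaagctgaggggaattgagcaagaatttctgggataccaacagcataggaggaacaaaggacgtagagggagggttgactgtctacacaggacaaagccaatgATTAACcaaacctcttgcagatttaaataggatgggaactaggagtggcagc
FGB: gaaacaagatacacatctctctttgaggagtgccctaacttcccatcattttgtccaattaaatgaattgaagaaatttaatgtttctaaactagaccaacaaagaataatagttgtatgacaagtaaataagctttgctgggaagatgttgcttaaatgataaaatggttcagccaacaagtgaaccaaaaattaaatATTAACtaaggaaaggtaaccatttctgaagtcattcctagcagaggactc
The motif begins 61, 52 and 51 bases before the start. Over windows of 300 bases (250 before to 50 after the start), GTTAAT in either orientation was in 6.88% of all 35116 windows, in 10 of 40 windows of higher plasma protein genes (25%), in 3 of 5 of lower ones (60.0%) and in 9 of 36 of those not called (25%). The 5 windows of lower genes belong to 4 genes, of which 2 had the motif. FGB was counted through overlapping windows, and the windows of FGG and F12 had no match. The share with the motif was thus the same, 25%, in windows of higher and of uncalled plasma protein genes. With only 4 lower genes, the comparison cannot tell whether the motif separates these from the others. The lists were composed of plasma protein genes, most of them products of the hepatocyte, so a share above that of all windows may be built into them.

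Transcription factors of the liver and other hepatocyte functions were split between the labels. Of 17 liver transcription factors 6 were higher and 2 lower (1 and 4 after median centring). CEBPA, which drives the mature hepatocyte programme, read 11.49, 11.60 and 11.51 under the SNU449 label and 8.03, 7.86 and 7.97 on PLC, while its relative CEBPB, active in the acute phase and in regeneration, read 8.69, 8.71 and 8.79 against 11.73, 11.83 and 11.83. The 2 factors stood on opposite sides, with differences of 3.58 and -3.06. PROX1 differed by 2.16, SOX9, a factor of bile duct and progenitor cells, by 2.01, the pioneer factor FOXA1 by 1.73 and NR0B2 by 1.25. GATA4 (-0.67), FOXA3 (0.77) and NR1I3 (0.58) were not called.

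Nitrogen metabolism was divided within the urea cycle. ARG1, the last enzyme of the cycle, read 8.65, 8.57 and 8.35 under the SNU449 label and 3.29, 3.28 and 3.18 on PLC, whereas ASS1, in the middle, read 10.41, 10.42 and 10.46 against 12.88, 12.88 and 12.88, and CPS1, at the entry, differed by -2.90. The ornithine carrier SLC25A15 differed by -2.07. HAL, which degrades histidine, was higher by 4.38 and glutamine synthetase, GLUL, by 2.91. OTC (-0.96), ASL (0.83) and NAGS (0.78) were not called. Over 13 genes of the list 4 were higher and 3 lower, which turned to 2 and 3 without the dimmest 50% of genes.

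Among enzymes that process drugs, UGT2B4, which attaches glucuronic acid to bile acids, read 11.61, 11.50 and 11.54 under the SNU449 label and 5.15, 5.18 and 5.4 on PLC. GSTP1, a glutathione transferase of bile duct and tumour cells rather than normal hepatocytes, read 6.32, 6.07 and 6.19 against 12.23, 12.34 and 12.34. Of 18 conjugation genes 6 were higher and 3 lower (6 and 8 after median centring), among them the sulfotransferases SULT1C2 (4.44), SULT2A1 (4.0) and SULT1A1 (3.25), and NNMT (-3.17). Since UGT2B genes are close copies of one another, their probe sets can share signal. Cytochrome P450 genes gave 3 higher and 2 lower of 20 (0 and 5 after median centring, 1 and 2 in the mean of probe sets). CYP24A1, which inactivates vitamin D, read 2.46, 2.37 and 2.51 against 8.81, 8.69 and 8.64, and CYP4F3 differed by -4.55. The main drug-metabolising genes of the list were close: CYP3A4 differed by 1.2 and CYP2E1 by 1.0, and both lost the call in the mean of their probe sets and after median centring. Of 15 transporters 3 were higher and 3 lower (11 and 3 as deposited, 5 and 3 with arrays scaled to RNA spiked in at hybridization), with ABCC3, an exporter to blood, at 3.89 and ABCC2, the exporter to bile, at -3.82. ABCG2 differed by -3.08, SLCO1B3 by 2.38, ABCB4 by 2.20 and ABCC4 by -1.54.

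Glucose genes gave 4 higher and 7 lower of 23, an order that turned to 8 and 6 in the values as deposited. Hexokinases, which trap glucose in the cell, were split: HK2 read 11.26, 11.19 and 11.17 under the SNU449 label and 6.49, 6.75 and 6.61 on PLC, while HK1 differed by -2.37. The glucose transporters SLC2A3 (-5.11) and SLC2A2 (-3.13), PFKP of glycolysis (-5.53) and PCK1, the entry enzyme of gluconeogenesis (-3.07), were lower. SLC2A1 (0.80), LDHA (-0.59) and PCK2 (-0.91) were not called. With LDHB at -7.94 and LDHA at -0.59, the subunits of lactate dehydrogenase differed unequally. Fatty acid genes had 11 higher and 8 lower of 28 (3 and 12 after median centring). PNPLA3, a lipid droplet enzyme, read 8.97, 9.10 and 9.20 against 4.82, 4.95 and 5.08, ACSL1 differed by 3.65, the fatty acid receptor CD36 by 3.27 and PLIN2, which coats lipid droplets, by 2.30. ACADL (-2.08) and ACSL5 (-1.93) were lower. Sterol synthesis gave 2 higher and 0 lower of 17, FDPS at 1.2 and HMGCS1 at 1.11 (0 and 10 after median centring). The share called, 11.8%, was below the 19.2% over all genes.

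Genes of the fetal liver and of progenitors were higher under the SNU449 label in 12 of 20 cases and lower in 2 (7 and 5 after median centring). DLK1, a Notch-related membrane protein of hepatoblasts, read 10.15, 10.18 and 10.22 under that label and 4.13, 4.24 and 4.29 on PLC. GPC3 differed by 4.99, KRT19 by 4.74, the imprinted gene PEG3 by 3.56 and EPCAM by 6.38. TSPAN8, a tetraspanin of gut-type epithelium, stood against the group at 4.08, 3.84 and 4.19 and 10.29, 10.37 and 10.38. The genes not called were the RNA-binding genes IGF2BP2 (0.16) and IGF2BP3 (0.27) and the surface glycoprotein CD44 (0.15).

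Germ-line antigens were higher on PLC. Of 19 measured cancer testis genes, 8 were lower under the SNU449 label and 0 higher, with a median difference of -0.97, although 2 were called higher in the values as deposited. MAGEA12 read 5.47, 5.23 and 5.19 under the SNU449 label and 11.72, 11.69 and 11.59 on PLC. CTAG2 read 4.57, 4.62 and 4.82 against 10.55, 10.57 and 10.52, MAGEA6 6.91, 6.70 and 6.81 against 12.32, 12.29 and 12.25, and MAGEA10 4.24, 4.24 and 4.10 against 8.23, 8.41 and 8.50. SSX1, of another X-linked family, differed by -4.02. MAGEC1 (-0.79), MAGEC2 (-0.77) and MAGEA1 (-0.97) were not called. MAGEA genes are near-identical copies on the X chromosome, so a single member's value may hold signal of its relatives.

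Genes of the NRF2 pathway had the largest share of lower calls of any list. NRF2 is a transcription factor released from KEAP1 under oxidative stress that turns on detoxifying and glutathione genes, and aldo-keto reductases are among its targets. Of 24 genes 15 were lower under the SNU449 label and 0 higher, with a median difference of -1.56 (2 higher and 14 lower in the values as deposited). AKR1C3 read 3.56, 3.67 and 3.78 under the SNU449 label and 9.82, 9.85 and 9.89 on PLC. CBR1, a carbonyl reductase, read 3.43, 3.68 and 3.66 against 8.81, 8.84 and 8.83, and AKR1B10 read 4.39, 4.24 and 4.35 against 7.78, 7.83 and 7.82. NQO1, a quinone reductase much used as a readout of the pathway, differed by -3.23, AKR1C1 by -3.91 and AKR1C2 by -3.32. The 3 AKR1C genes are close copies and their probe sets may share signal. SLC7A11 (-0.88), TKT (-0.61) and ME1 (-0.38) were not called. Windows of 300 bases around the start held the motif TGACNNNGC (either strand) in 5 of 15 windows of lower members (33.3%), 3 of 8 of members not called (37.5%) and 13.3% of all windows.

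Chemokines and NF-kB targets were lower under the SNU449 label, in 13 of 24 genes against 0 higher, with a median difference of -1.11 (7 higher and 10 lower in the values as deposited). NF-kB is the factor that switches on inflammatory genes after cytokine signals. CXCL8, the neutrophil chemokine interleukin 8, read 9.49, 9.53 and 9.35 under the SNU449 label and 13.06, 12.93 and 12.97 on PLC, a difference of -3.53 ± 0.081 (SE, adjusted p 3.11e-16 in limma). IL32, a cytokine without a close relative, read 6.39, 6.4 and 6.44 against 9.52, 9.59 and 9.51, and CXCL2 read 6.33, 6.49 and 6.28 against 8.89, 8.88 and 8.86. The adhesion receptor VCAM1 differed by -2.22, CXCL5 by -1.96 and CXCL3 by -1.71. CXCL2 lost the call in the mean of its probe sets. IL6 (0.40), IL1B (0.54) and CCL20 (-0.37) were not called.

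The chemokine genes CXCL8, CXCL3 and CXCL2 lie in one cluster on chromosome 4, and their promoters are shown for the NF-kB motif they share, GGAATTTCC, in capitals (read on either strand). The windows are the 250 bases before each start, from RefSeq on GRCh38.p14: CXCL8 at chr4:73740319-73740568 on the plus strand, CXCL3 at chr4:74038690-74038939 on the minus strand and CXCL2 at chr4:74099196-74099445 on the minus strand.
CXCL8: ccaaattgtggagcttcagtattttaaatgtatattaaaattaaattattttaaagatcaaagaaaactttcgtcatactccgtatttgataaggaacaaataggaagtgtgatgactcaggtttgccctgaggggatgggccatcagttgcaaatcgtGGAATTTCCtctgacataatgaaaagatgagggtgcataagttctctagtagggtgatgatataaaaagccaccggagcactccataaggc
CXCL3: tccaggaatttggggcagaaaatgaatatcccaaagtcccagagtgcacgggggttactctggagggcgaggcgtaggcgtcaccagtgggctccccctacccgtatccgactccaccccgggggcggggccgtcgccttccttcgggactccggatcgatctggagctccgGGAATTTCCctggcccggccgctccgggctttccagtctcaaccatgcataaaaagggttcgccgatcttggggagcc
CXCL2: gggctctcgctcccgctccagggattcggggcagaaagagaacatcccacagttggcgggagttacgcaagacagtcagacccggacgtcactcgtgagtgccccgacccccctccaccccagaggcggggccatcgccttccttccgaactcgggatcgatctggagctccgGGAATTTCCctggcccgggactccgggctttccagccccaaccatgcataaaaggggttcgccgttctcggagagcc
The motif begins 91, 78 and 77 bases before the start. In windows of 300 bases it was found in 7 of 15 windows of lower list members (46.7%), in 1 of 9 windows of members not called (11.1%) and in 0.461% of all windows. The list was composed of known NF-kB targets, so a high share of the motif was built into it, and a match says nothing of binding in these cells.

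**Figure D3:**
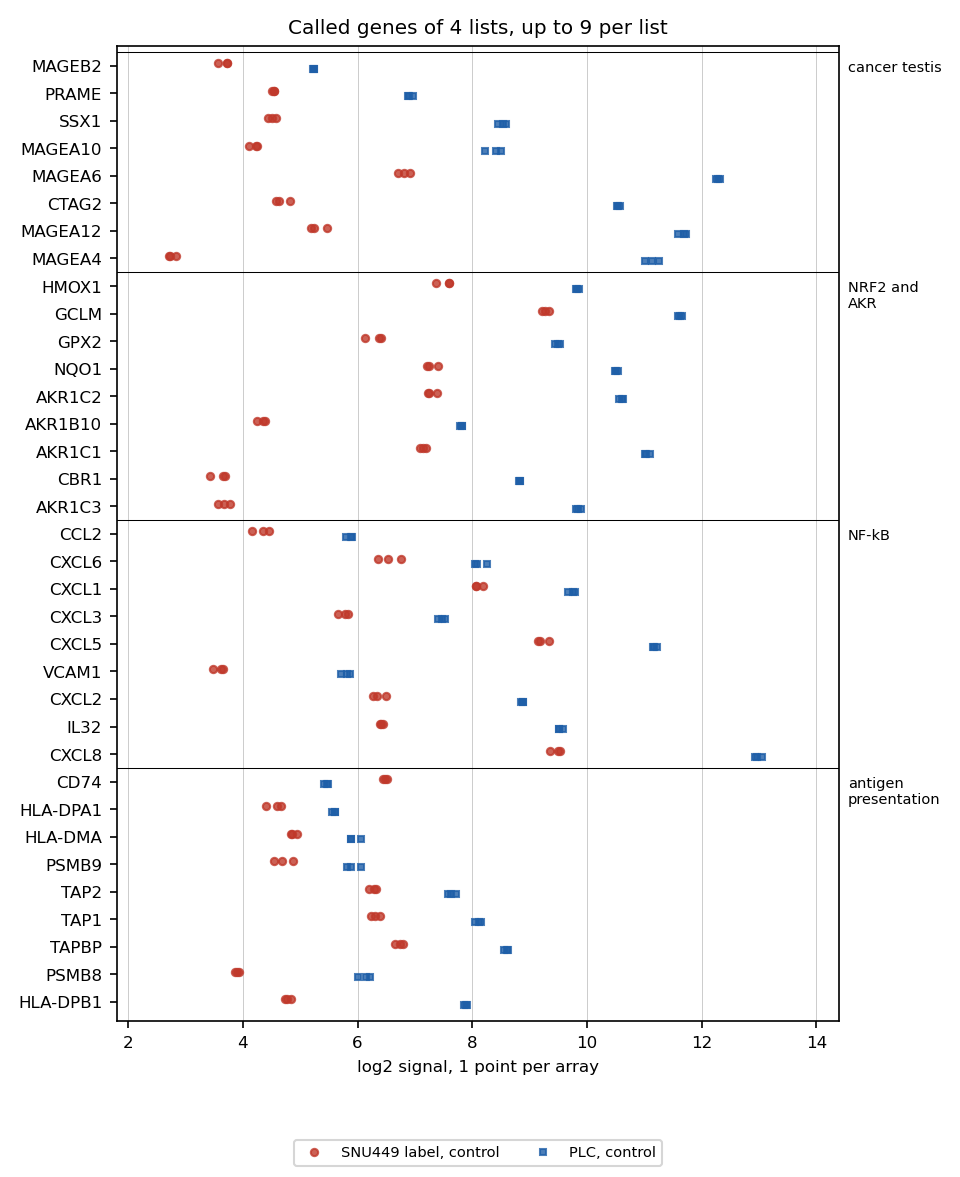
Log2 signal on each control array of called genes of 4 lists (cancer testis antigens, NRF2 targets and aldo-keto reductases, chemokines and NF-kB targets, antigen presentation), up to 9 per list with the largest differences. PLC arrays (blue squares) lie to the right of the arrays labelled SNU449 (red circles) for every gene plotted except CD74.

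Interferon and antigen presentation genes were lower under the SNU449 label as well. Of 31 interferon-stimulated genes 10 were lower and 1 higher (12 higher and 8 lower in the values as deposited). IFIT5, an RNA-binding antiviral protein, read 3.85, 3.70 and 3.64 under the SNU449 label and 7.30, 7.38 and 7.49 on PLC. ISG20, an exonuclease, read 5.46, 5.33 and 5.41 against 8.80, 8.83 and 8.73, and BST2, which tethers virus particles at the membrane, read 4.57, 4.54 and 4.72 against 7.72, 7.78 and 7.70. GBP1 differed by -2.80, IFI35 by -2.32 and OAS1 by -2.17. IFI6 (-0.67), IFITM3 (-0.85) and CXCL10 (0.68) were not called, and IFIT5 lost its call with the probe set chosen on 12 arrays. Of 21 antigen presentation genes 8 were lower and 1 higher (4 and 4 as deposited). HLA-DPB1, a class II chain, read 4.73, 4.84 and 4.77 against 7.86, 7.92 and 7.89, and the immunoproteasome subunit PSMB8 read 3.93, 3.90 and 3.87 against 6.02, 6.14 and 6.22. The peptide loading genes TAPBP (-1.86), TAP1 (-1.79) and TAP2 (-1.37) and the proteasome gene PSMB9 (-1.23) were lower too. Some of these calls depended on the processing. PSMB9 was at -0.0034 and TAP2 at -0.82 in the values as deposited, and neither was called there. In the mean of probe sets TAPBP (-0.73) and TAP2 (-0.73) lost the call. B2M, the class I light chain, differed by -0.60 and was not called.

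Type IV collagen stood out among the matrix genes. COL4A1 and COL4A2, the chains of the basement membrane, read 10.89, 10.82 and 10.83 and 9.74, 9.86 and 9.85 under the SNU449 label and 3.49, 3.59 and 3.91 and 3.2, 3.10 and 3.24 on PLC, which are differences of 7.18 and 6.64. The 2 genes are transcribed in opposite directions from starts 126 bases apart, and the stretch between them is shown because it is the promoter of both. It lies at chr13:110307158-110307283 (RefSeq, GRCh38.p14, plus strand), with 80.2% G and C, and the capitals mark its 1 CCAAT and its 1 GGGCGG.
COL4A1 to COL4A2: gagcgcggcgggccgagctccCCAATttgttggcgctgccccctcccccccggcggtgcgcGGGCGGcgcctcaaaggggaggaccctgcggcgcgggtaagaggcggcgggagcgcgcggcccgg
GGGCGG was found in 45.0% and CCAAT in 34.6% of all 300-base windows, on either strand, and the median window had 58.7% G and C. Over 33 collagen and matrix genes 9 were higher and 3 lower (7 and 9 after median centring). LOX, which crosslinks collagen, read 8.09, 7.98 and 7.89 against 2.94, 2.88 and 2.78, and COL5A2 differed by 3.88. The metalloproteinase inhibitor TIMP1 was at -3.86 and the matricellular gene CCN1 at -3.69. COL1A2 (0.64), COL3A1 (-0.99) and MMP2 (0.68) were not called.

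Epithelial and mesenchymal genes were mixed. Of 27 epithelial genes 6 were higher and 3 lower (4 and 8 after median centring). The splicing factor ESRP1, found in epithelium, read 8.82, 8.77 and 8.82 under the SNU449 label and 4.67, 4.74 and 4.45 on PLC. ST14, a membrane protease, differed by 2.44, OVOL2, a factor that holds the epithelial state, by 2.16 and E-cadherin, CDH1, by 2.10, whereas the desmosomal gene DSC2 differed by -2.64. CLDN1 (-0.81), DSG2 (-0.87) and TJP3 (0.88) were not called. Of 23 mesenchymal genes 4 were higher and 6 lower, an order that turned to 8 and 5 in the values as deposited, to 7 and 5 with arrays scaled to the spiked-in controls and to 7 and 6 without PLC control replicate 2. TPM2 read 4.54, 4.86 and 4.59 against 11.46, 11.54 and 11.47, TAGLN, another protein of the contractile cytoskeleton, differed by -2.59, and TWIST2 by -1.92. S100A4 was higher by 1.99. Among 10 keratins (5 higher and 2 lower as deposited) KRT23 (5.00) and KRT19 were higher, KRT20 and KRT18 (-1.01) lower, and KRT8 (-0.34) and KRT7 (-0.36) were not called. KRT18 lost its call without SNU449 control replicate 1 (-0.98), without PLC control replicate 2 (-0.99) and with arrays scaled to the spiked-in controls (-0.76). Of 11 bile duct markers 2 were higher and 2 lower (6 and 1 as deposited, 1 and 4 after median centring), with CFTR, the chloride channel, at 4.44, 4.28 and 4.42 against 8.67, 8.69 and 8.70. Among S100 proteins and annexins 6 of 21 were higher and 4 lower (6 and 10 after median centring, 3 and 4 without the dimmest 50% of genes). S100A6 read 10.79, 10.82 and 10.86 against 4.30, 4.28 and 4.32, and S100A10, partner of ANXA2, read 8.35, 8.36 and 8.23 against 12.36, 12.44 and 12.40.

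Growth factor receptors on the surface of the cells differed by gene. FGFR4, the receptor for FGF19 in hepatocytes, read 9.80, 9.92 and 9.89 under the SNU449 label and 6.34, 6.27 and 6.20 on PLC. AXL differed by -5.05, and its relative MERTK, which also binds GAS6, read 3.5, 3.62 and 3.58 against 7.84, 7.80 and 7.81. EPHB4 was higher by 2.02 and FGFR3 by 1.73, while MET (0.70), INSR (-0.56) and IGF1R (-0.93) were not called. In all 3 of 25 receptors were higher and 4 lower, which became 11 and 2 in the values as deposited and 3 and 2 without the dimmest 50% of genes. For FGFR1 (-1.32), a further probe set had the opposite call. Among 25 ligands 4 were higher and 5 lower (12 and 3 as deposited, 5 and 3 with the spiked-in scaling). EREG, a ligand of the EGF receptor, read 8.20, 7.89 and 7.89 against 11.21, 11.08 and 11.08, the stress-induced GDF15 differed by -2.47 and PDGFA by 2.18. Of 14 genes of the insulin-like growth factor axis 2 were higher and 2 lower (8 and 2 as deposited, 0 and 6 after median centring), with IGFBP1, a liver-secreted binding protein, at 8.02, 7.97 and 7.46 against 11.69, 11.44 and 11.61. In the Wnt list 3 of 22 were higher and 3 lower (9 and 1 as deposited, 2 and 7 after median centring). LEF1, a transcription factor of the pathway, read 3.67, 3.60 and 3.99 against 8.35, 8.43 and 8.33, opposite to DKK1, and AXIN2 (-0.49), a widely used target, was not called. The share called was 28% of receptors, 28.6% of the insulin-like growth factor axis and 27.3% of the Wnt list, against 19.2% of all genes. Of 18 integrin and laminin genes 1 was higher and 2 lower, a share called of 16.7%, with ITGA6 at 1.79. The values as deposited gave 7 and 0, the spiked-in scaling 2 and 0 and the mean of probe sets 2 and 1. Of the lower genes, ITGA1 (-1.14) had a further probe set with the opposite call, so its order is uncertain. ITGA5 lost its call as deposited (-0.56).

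The RB pathway showed opposite calls for 2 tumour suppressors. RB1, which restrains entry into S phase, read 4.63, 4.42 and 4.27 under the SNU449 label and 8.59, 8.55 and 8.57 on PLC, a difference of -4.13 ± 0.09 (SE, adjusted p 1.65e-16 in limma). CDKN2A, which encodes the CDK inhibitor p16 and ARF, read 10.56, 10.61 and 10.61 against 8.19, 8.12 and 8.10, and its neighbour CDKN2B differed by 1.79. None of the other 8 genes measured around RB1 was called on this scale, though with RB1 included the list gave 5 lower after median centring and 3 higher and 1 lower as deposited. The reported differences were ITM2B at -0.46, MED4 at -0.34 and LPAR6, which lies within an intron of RB1, at 0.19. Of 7 genes around CDKN2A, CDKN2A and CDKN2B were called (2 higher and 2 lower in the list after median centring), CDKN2B lost its call at 0.82 in the mean of its probe sets, and MTAP (0.38) and KLHL9 (0.37) were not. Over 24 RB, CDK and cyclin genes 4 were higher and 2 lower (2 and 11 after median centring), with E2F5 at -1.90, and CCND1 (-0.88), CCNE1 (1.0) and CDK6 (-0.72) not called. Of 25 replication genes 3 were higher and 1 lower (0 and 14 after median centring), MCM2 by 1.81 and UNG by 1.54. The share called was 25% of the RB, CDK and cyclin list, 16% of the replication list and 24% of the HOX list. Over all genes it was 19.2%, so these 3 lists lie near the background. Of 20 p53 targets 4 were higher and 5 lower (7 and 5 as deposited), PLK2 at 3.25, TP53INP1 at 2.35, the death receptor TNFRSF10B at -2.40 and DDB2 at -2.19. Of 12 DNA methylation and polycomb genes 5 were higher and 0 lower (0 and 3 after median centring), with DNMT1 at 1.46, DNMT3A at 1.24 and DNMT3B at 1.21, and EZH2 (-0.13) not called. HOX genes gave 1 higher and 5 lower of 25 (12 and 1 as deposited), with HOXD1 at 7.94, 7.99 and 7.94 against 4.81, 4.84 and 4.78 and HOXC13 at 4.08, 4.03 and 4.09 against 6.90, 6.98 and 6.83.

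**Figure D4:**
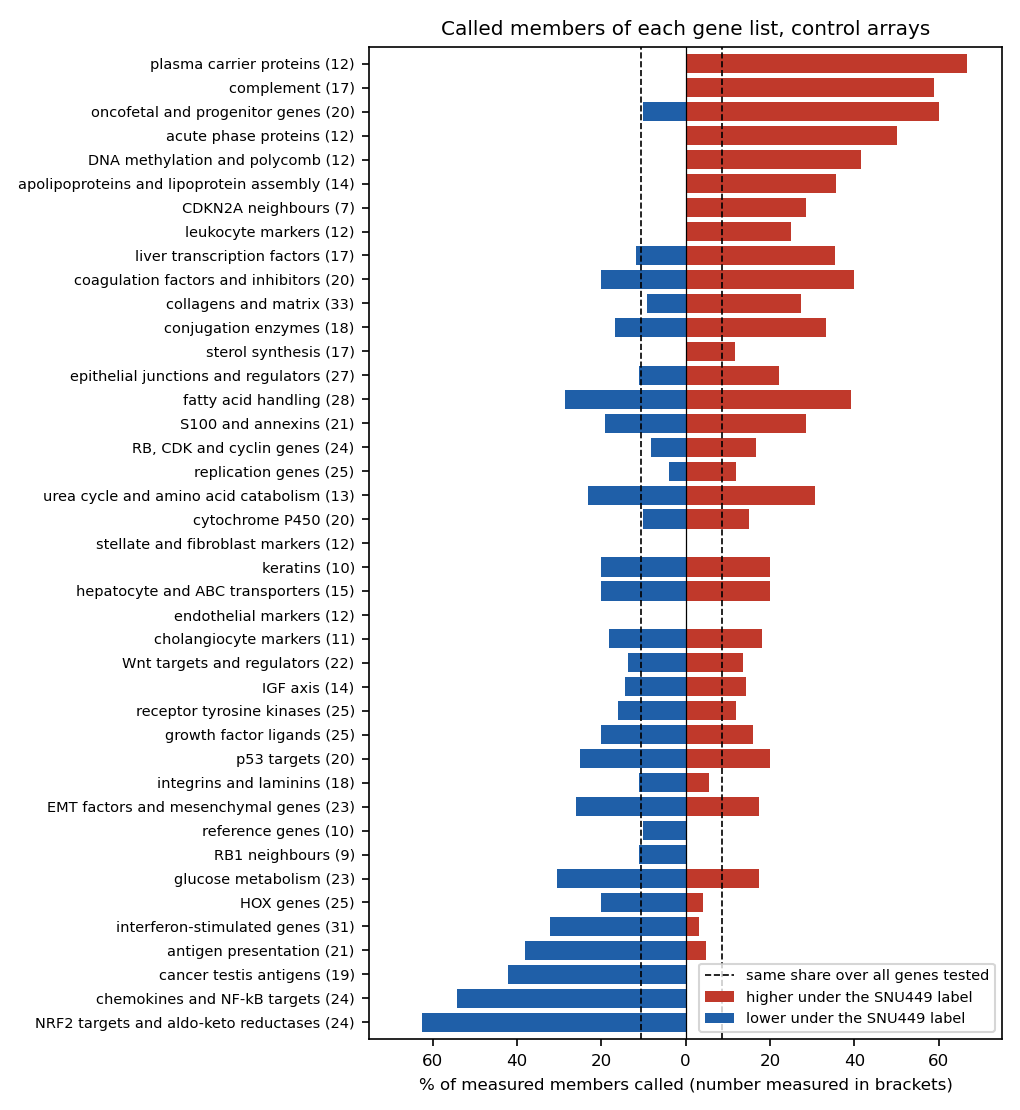
Share of the measured members of each of 41 gene lists called higher (red, to the right) or lower (blue, to the left) on control arrays labelled SNU449 than on PLC control arrays, in percent, with the number measured in brackets. Dashed lines mark the shares over all genes tested, 8.63% higher and 10.5% lower, which the plasma carrier list exceeds at 66.7% higher and the NRF2 list at 62.5% lower.

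Reference genes and added controls show how far the scale itself may be off. All 10 reference genes measured had negative differences, with a median of -0.43, and 1 was called, PGK1 at -1.17. Of the 18 probe sets for RNA spiked in at hybridization (bioB, bioC, bioD and cre) 17 had negative differences, from -0.75 to 0.05 with a median of -0.24, and the spiked-in scaling used 9 of them. Of the 24 probe sets for dap, lys, phe and thr, transcripts often added before labelling, 22 had negative differences, from -1.28 to 0.18 with a median of -0.59. Signal from the 5' end of control transcripts minus that from the 3' end was -0.30 to -0.37 log2 units on the control arrays labelled SNU449 and -0.44 to -0.59 on PLC, so this measure moved with the label, and its part in the results was not tested. Of the 3792 called genes, 2351 had more than 1 probe set, of which 1296 had another probe set with the same call and 43 had one with the opposite call.

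The same comparison on the ATAD2 siRNA arrays uses 6 other arrays, and it gave nearly the same picture. There 1656 genes had a higher and 2131 a lower signal under the SNU449 label, again 19.2% of 19775. Of these calls 1479 higher and 1897 lower were shared with the control arrays, which is 89.0% of the control calls and 89.1% of the siRNA calls. A further 416 control calls were not called there, and 0 were called in the opposite direction. MBNL3 differed by 9.36 on siRNA arrays against 9.15 on control arrays, MAGEA4 by -8.30 against -8.38, FGB by -4.53 against -4.65, CXCL8 by -3.57 against -3.53, and AKR1C3 by -5.66 against -6.18. Of the 41 called plasma protein genes 40 had the same call. The fit shares 1 estimate of the spread per gene between both comparisons, and both share the scale of the deposited columns, so a shared call says nothing about the scale.

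The difference between the labels depended on ATAD2 siRNA for 40 genes, 0.202% of those tested (adjusted p under 0.05 in limma for the interaction). Of these, 21 had a more positive difference on siRNA arrays and 19 a more negative one, and 3161 genes had an unadjusted p under 0.05. Among genes called on control arrays the smallest p belonged to ORM1, whose difference rose from 4.70 to 5.59: under the SNU449 label ORM1 read 11.71, 11.86 and 11.86 with control siRNA and 11.89, 11.86 and 11.89 with ATAD2 siRNA, and on PLC 7.12, 7.21 and 7.0 and 6.32, 6.27 and 6.28. The change thus lay in the PLC arrays. TUBA1A, an alpha tubulin, went from -1.09 to -1.85, here with the fall under the SNU449 label, from 7.85, 7.90 and 7.83 to 7.09, 7.01 and 7.03. FABP1, which carries fatty acids within hepatocytes, went from -1.57 to -0.80, RBP4 from 5.37 to 6.04 and SERPINF1, an inhibitor of vessel growth, from 3.44 to 4.0. The count of 40 was the least stable of the 5 counts tested with single arrays left out. It was 12, 16 and 10 without SNU449 control replicate 1, 2 or 3, and 14, 6 and 8 without SNU449 ATAD2 siRNA replicate 1, 2 or 3. Without PLC ATAD2 siRNA replicate 2 it was 1482, without replicate 3 of that group 83, and PLC ATAD2 siRNA arrays 1 and 3 had a 5' minus 3' difference of -1.15 and -1.09 against -0.45 on array 2.

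**Figure D5:**
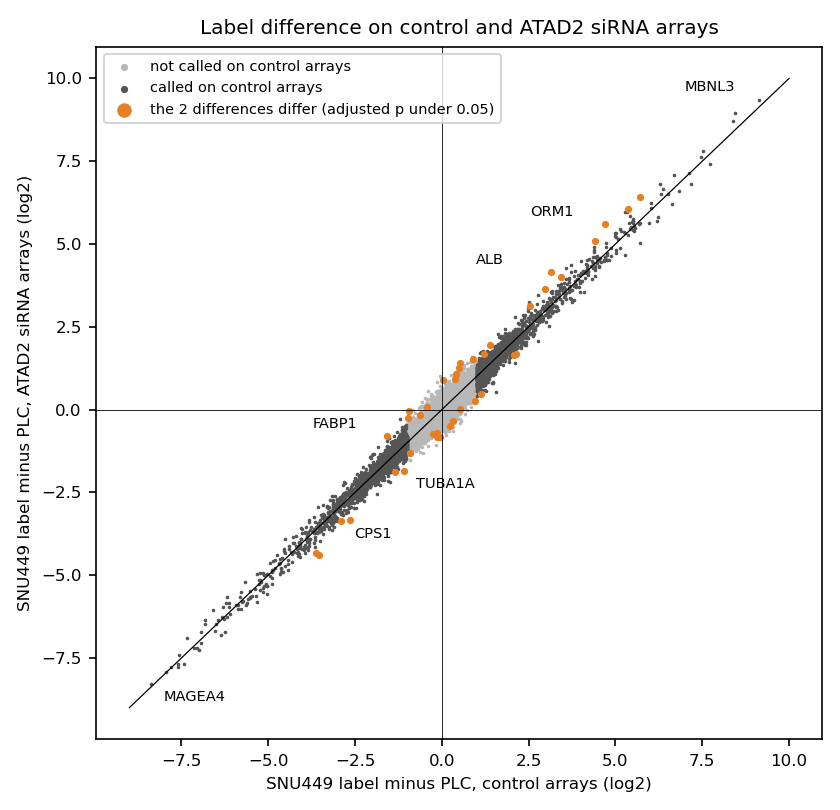
Difference of the arrays labelled SNU449 minus the PLC arrays for each gene, with control siRNA (horizontal axis) and with ATAD2 siRNA (vertical axis), both in log2 units, with the line of equal difference in black. Genes lie along the line from MAGEA4 to MBNL3, and the 40 genes in orange, among them ORM1 and ALB, are those whose 2 differences differed at an adjusted p under 0.05 in limma.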

How the data were processed

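The authors deposited 1 table of log2 signals for 54675 probe sets on 18 arrays (3 per group, 6 groups); how background and arrays were corrected is not given in the sources used here; the submitters' processing notes name limma alone. Groups came from the sample labels. Columns were quantile normalized over all 18 arrays. Of the probe sets 41097 had 1 gene in the platform annotation, 1801 several and 11777 none; the 19775 genes tested were each represented by the probe set with the highest mean. A model with 6 group means was fitted using limma 3.58.1 under R 4.3.3 (12 residual and 4.01 prior degrees of freedom), two-sided, with Benjamini-Hochberg adjustment over all genes and the thresholds stated above. With 3 arrays against 3 an exact permutation test cannot give a p under 0.1, so none is used, and the number of arrays limits the precision. The script was tested on simulated data.

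Members and the 41 gene lists (731 different genes measured) were chosen with earlier results of these data known, so a list's count is a description. Named genes are the 15 largest non-overlapping calls per direction, up to 6 called and 3 uncalled members per list, ATAD2, RB1 and CDKN2A with their neighbours, and 5 genes by interaction p. The 15 leave out sex-specific genes and unnamed loci. VIM and TPM2 in the check of labels, members beyond the sixth in plots and the runs of neighbouring genes were chosen after values were seen. Same-numbered arrays of the 2 control groups correlated by 0.056, 0.012 and 0.036 in their deviations, so numbers did not pair them. Alternatives covered scaling, dim genes, the choice of probe set, the fit, thresholds, each replicate left out and, added after seeing the data, a spiked-in scaling and 2 arrays left out. Promoter windows (RefSeq, GRCh38.p14) were matched for 542 of the 731 list genes.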

Additional observations from a re-analysis of the deposited data

Results flagged for a closer look

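For 12 of the named genes the difference between the arrays labelled SNU449 and the PLC arrays was not the same with ATAD2 siRNA as with control siRNA, by limma's interaction test adjusted over all 19775 genes. Over all genes tested 40 (0.202%) passed this test. ORM1, TUBA1A, FABP1, RBP4 and SERPINF1 were named for their small interaction p, so the count of 12 is partly fixed by that choice. The values below are the difference with ATAD2 siRNA minus the difference with control siRNA, in log2 units, each over 12 arrays. Among plasma protein genes higher under the SNU449 label, the interaction in limma was ORM1 0.89 (SE 0.088, adjusted p 0.000214), RBP4 0.67 (SE 0.076, adjusted p 0.000594) and ALB 1.01 (SE 0.19, adjusted p 0.0471), so the gap between the labels was wider with ATAD2 siRNA. The same held for the lipoprotein genes, with limma values of APOA1 0.67 (SE 0.11, adjusted p 0.0215), APOA2 0.58 (SE 0.093, adjusted p 0.0215), APOC3 0.68 (SE 0.13, adjusted p 0.0437) and MTTP 0.56 (SE 0.099, adjusted p 0.0339), and for the secreted inhibitor SERPINF1 0.56 (SE 0.081, adjusted p 0.0111). FABP1, which was lower under the SNU449 label, had an interaction in limma of 0.77 (SE 0.086, adjusted p 0.000594), a narrower gap. Gaps that were wider in the lower direction belonged, by the same limma test, to CPS1 -0.47 (SE 0.087, adjusted p 0.0384), DSC2 -0.68 (SE 0.1, adjusted p 0.0164) and TUBA1A -0.76 (SE 0.084, adjusted p 0.000594). PLC ATAD2 siRNA arrays 1 and 3 stood apart in the 5' to 3' signal of control transcripts, and the part of this in these 12 values was not tested. With these 2 arrays left out, an alternative chosen after seeing the data, the count of such genes over all tested was 532 in place of 40, so membership of this group is sensitive to which arrays enter.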

How the results depend on the processing

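Counts are given as higher and lower on control arrays, then higher and lower on ATAD2 siRNA arrays, then the interaction (1706, 2086, 1656, 2131 and 40 as reported). The values as deposited gave 8084, 1338, 7714, 1210 and 216, and median centring 713, 7863, 755, 7354 and 484. Arrays scaled to the spiked-in controls gave 2639 higher on control arrays, 6358 and 809 on siRNA arrays and 1144 for the interaction. Higher genes were 45% of control calls as reported, 85.8% as deposited, 8.31% after median centring and 63.6% with the spiked-in scaling, yet 0 of the 3792 calls turned to the opposite call under these 3, and 2961, 2799 and 3219 kept theirs. The mean of all probe sets kept 2764 with 0 opposite, and the probe set chosen on 12 arrays turned 2. A minimum of 2 gave 487 and 629 in both comparisons, and no minimum gave 7203, 7047, 6749 and 7397. Without the dimmest 50% of genes, which leaves fewer genes to test, 1120 were higher on control and 1082 on siRNA arrays. The interaction count was 101 and 213 without the dimmest 30% and 50% of genes, 24 in the fit on 12 arrays, 156 with an intensity trend and robust prior, 5 at an adjusted p under 0.01 and 532 without PLC ATAD2 siRNA arrays 1 and 3. The replicate block gave 22 there and moved no other count by over 1.5 times, and the numbers do not pair the arrays. Leaving out 1 replicate at a time gave 1706 to 1743, 2086 to 2113, 1656 to 1685, 2121 to 2174 and 6 to 1482.

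Of 223 named genes 155 kept their call or lack of one in each alternative run for single genes (24, which leave out the other thresholds; dim genes drop out of 2 of them). Signs were compared only for named genes called as reported or in the alternative. Among these, differences that changed sign in the values as deposited were APCDD1 at 0.30, CYSLTR2 at 1.07, HOXA2 at 0.26, HOXC4 at 0.17 and SPP1 at 0.23. After median centring they were CDKN1B at -0.46, DNMT1 at -0.10, FDPS at -0.50, HMGCS1 at -0.38, IRS1 at -0.21, ITIH2 at -0.083, LGR5 at -0.18, LYZ at -0.62, NR0B2 at -0.014, SERPINA1 at -0.61, TET3 at -0.17 and UHRF1 at -0.21, and in the mean of probe sets ITGA1 at 0.33 and SERPINA1 at -0.16. Calls lost with the sign kept numbered 14 as deposited, 23 after median centring and 17 in the mean of probe sets. Among them were TWIST2 (-0.85 as deposited) and FGFR3 (0.24 after median centring, 0.97 in the mean of probe sets). Apart from these scalings and probe set choices the cause of the changes was not tested. The files give no detection calls, so genes near the floor of the array have differences that understate the ratio.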

Other observations

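Called genes were also looked at in the order of the RefSeq gene table, in which 19705 tested genes had a place. Runs of at least 4 neighbouring tested genes, all called in one direction, numbered 40, of which 15 were higher and 25 lower under the SNU449 label. This view was chosen after the values were seen, and how many runs the same calls would give in another order was not tested. The largest differences in a run belonged to SLC25A24, NBPF4, EEIG2 and HENMT1, which read 2.51, 3.23, 5.08 and 4.68 under the SNU449 label and 10.11, 7.54, 11.22 and 9.09 on PLC. Their means on the control arrays labelled Hep3B were 9.27, 3.23, 7.29 and 6.27. On the ATAD2 siRNA arrays the 4 differences were -7.77, -4.37, -5.83 and -4.20.

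The longest run had 6 genes, MYL12B, TGIF1, GAPLINC and 3 antisense genes of DLGAP1, lower by 1.86 to 3.69 log2 units. TGIF1, a repressor in TGF-beta signalling, read 5.92 under the SNU449 label and 9.61 on PLC, and MYL12B, a myosin light chain, 10.40 and 12.70. Clotting factor genes formed part of a run in the other direction, where MCF2L differed by 1.92, F7 by 1.65, F10 by 1.64 and PROZ by 1.19, with the antisense gene of MCF2L between them. The metallothioneins MT1F (1.5), MT1G (1.30), MT1H (1.27) and MT1X (1.21), which bind zinc and copper, were all higher under the SNU449 label, but they are close copies whose probe sets may share signal. The interferon-induced guanylate binding proteins GBP3 (-2.81), GBP1 (-2.80) and GBP2 (-2.01) were lower side by side, and the same 3 genes had means of 8.98, 9.51 and 8.11 on the control arrays labelled Hep3B. Antisense genes and close copies can be read by one another's probe sets, so a run that holds them counts fewer independent genes than its length.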
